A study of Rattus norvegicus with 12 samples.

Results

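Messenger RNA of 10 blood-nerve barrier genes was followed on every array of a rat study of nerve injection. They were the tight junction genes Cldn5, Cldn1, Cldn19, Ocln and Tjp1, the endothelial adhesion genes Cdh5 and Pecam1, and the transporter genes Slc2a1, Abcb1a and Mfsd2a. Probes were taken by the RefSeq accession that the scanner files give them, which found 12 probes for these 10 genes among 15159 named genes. Cldn19 and Tjp1 each had 2 probes, and the brighter one was used unless stated.

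The blood-nerve barrier is formed by the endothelial cells of the vessels inside the nerve and by the perineurium, the layered sheath around each nerve bundle. In both layers claudins and occludin seal the cleft between neighbouring cells, and scaffold proteins such as zonula occludens-1 tie them to actin. The sealed cells depend on transporters to bring in glucose and lipids and to pump out drugs, whereas the vessels of dorsal root ganglia (DRG) are known to be more permeable than those of nerve and cord.

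The study injected a peptide of myelin basic protein, residues 84 to 104 (MBP84-104), into the left sciatic nerve of female rats aged 8 weeks, at 50 µg in 5 µL, and PBS into the right nerve. Wild-type rats were labelled Sprague-Dawley and were sampled at day 12, whereas nude rats (Hsd:RH-Foxn1rnu, which lack mature T cells) were sampled at day 7. Each array held RNA pooled from 3 rats. The 12 arrays covered, in each rat type, the left and right nerve, the left and right DRG, and the dorsal part of the lumbar cord and of the cord above it. Strain, genotype and day therefore could not be told apart. The study's methods also name heterozygous rats of the nude strain (rnu+/-) as its controls, with other animal numbers and the same time for both rat types, whereas groups here follow the labels. Each condition had 1 array, so that a ratio within a rat type has no replicate, and sides and levels of cord were tested only over both rat types, with their pools as replicates.

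Values are the scanner's background-subtracted fluorescence (the signal), and levels are log2 signal minus the median of all probes on that array (the centred level). The median probe signal ran from 15.4 on the injected nude nerve array to 74.9 on the wild-type upper cord array, and 59.5% to 76.9% of spots were well above background by the scanner's flag. A ratio against the injected nude nerve array depended strongly on scaling, since its median probe lay close to its lowest detected signal. Such ratios of the barrier genes are given with their range over 9 ways of processing. Those of other genes are given with median centring only. Levels of different probes were not compared with each other.

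Of the 10 genes, 8 were well above background on all 12 arrays. Mfsd2a, the gene of a lipid transporter of barrier endothelium, was so on 11 arrays, since on the injected nude nerve array 1 of its 2 spots was flagged. Abcb1a, which encodes the drug efflux pump P-glycoprotein, was well above background only on the nude right nerve array, at a signal of 16.7, and lay between 2.42 and 7.38 on the other arrays. Abcb1b, a second P-glycoprotein gene that is in the list of other barrier transporters, was well above background on all 12 arrays, at 75.3 to 235. Low Abcb1a signal thus does not describe P-glycoprotein RNA as a whole. No ratio or tissue difference is given for Abcb1a.

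Of 20 further genes that mark endothelial cells, 15 were on the array. Of these 15, 6 genes, Kdr, Erg, Emcn, Clec14a, Sox18 and Plvap, were well above background on all 12 arrays, and Tie1 and Sox17 on none. Endothelial RNA was thus measured in every tissue.

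The clearest pattern among the 10 genes was between tissues. Cldn1 and Cldn19 were far higher in nerve and DRG than in cord, Pecam1 fell in the order nerve, DRG, cord, and Mfsd2a was lower in nerve than in both other tissues. For this comparison the arrays of each pool and tissue were averaged, and the 6 profiles (2 per tissue) were fitted with limma with rat type as a block and Benjamini-Hochberg adjustment over 10633 genes. All of the 10 genes but Abcb1a entered the fit.

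**Figure D1:**
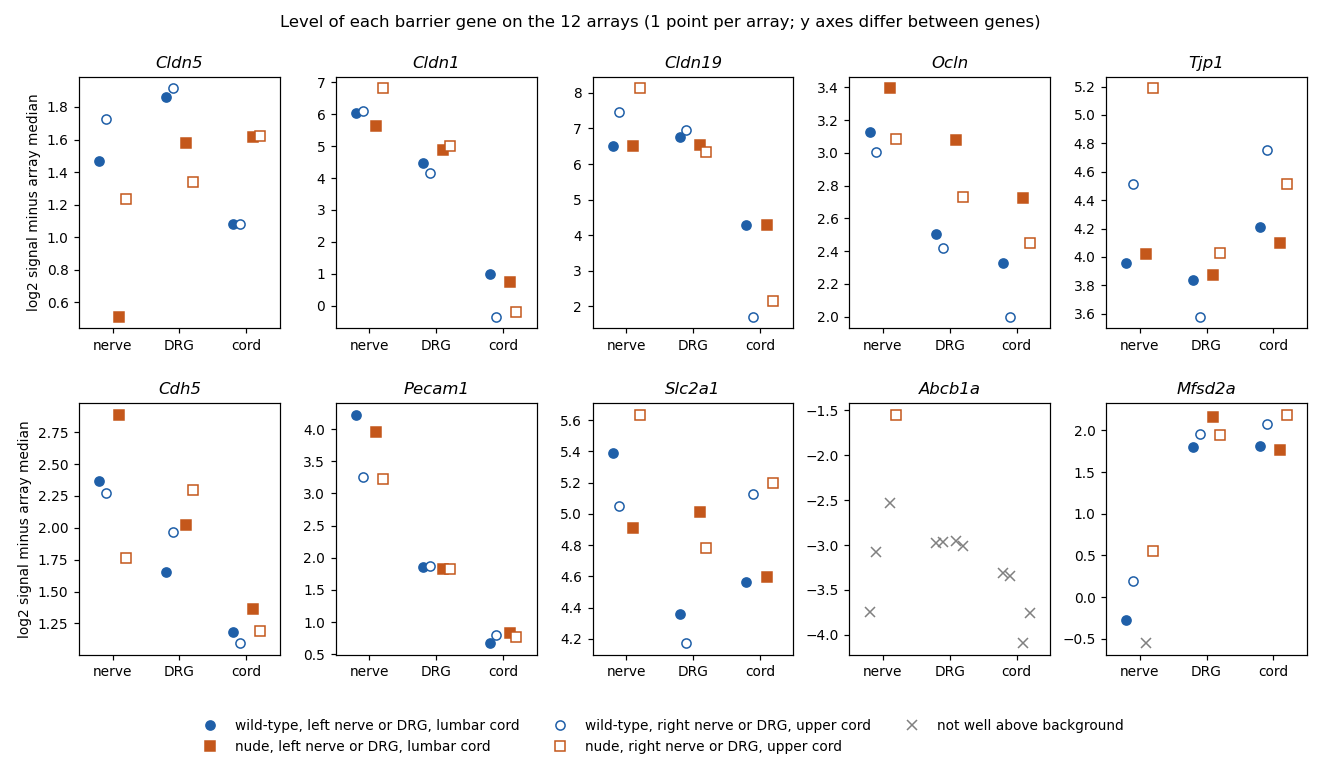
Centred level (log2 signal minus the array's median) of each of the 10 genes on the 12 arrays, by tissue, with 1 point per array, filled for left nerve, left DRG and lumbar cord. Cldn1 and Cldn19 lie lowest in cord, Pecam1 steps down from nerve to DRG to cord, Mfsd2a is lowest in nerve, and Abcb1a was well above background on 1 array.

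In nerve, 6 of 9 genes were called higher and 1 lower than in DRG, beside 39.7% of all genes called higher and 16.5% called lower. Against cord, 5 of 9 were called higher and 1 lower in nerve, beside 36.7% and 33.8% of all genes. Between DRG and cord, 4 of 9 were called higher and 1 lower in DRG, beside 25.8% and 40.5% of all genes. With calls this common among all genes, these counts say little about the 9 genes as a set, and the single genes are given next. The direction of calls over all genes also moved with scaling. In nerve against DRG 70.7% of calls were higher in nerve with median centring and 52.5% with the 75th percentile. In nerve against cord the share was 52.1%, and 38.9% with normexp background correction. In DRG against cord it was 38.9%, 49.5% with the 75th percentile and 26.6% with normexp.

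Claudin-1, which Cldn1 encodes, is the main tight junction claudin of the perineurium. Its signal was 2365 and 2255 in the left and right wild-type nerve and 762 and 5482 in the left and right nude nerve. The 2 wild-type DRG arrays gave 1265 and 665, and the 2 nude DRG arrays 669 and 625. In wild-type cord it was 110 at the lumbar and 59.2 at the upper level, and in nude cord 94.2 and 46.9. Every nerve and DRG array thus lay above every cord array. The centred level was 6.14 ± 0.49 in nerve, 4.62 ± 0.39 in DRG and 0.31 ± 0.68 in cord (SD, n = 4 arrays of 2 pools). Nerve exceeded cord by 5.83 on the log2 scale, with a 95% confidence interval from 5.46 to 6.204, or 57.0-fold (limma adjusted p = 1.0e-08). Nerve exceeded DRG by 1.52 (adjusted p = 7.5e-05, limma), and the groups did not overlap. Across all alternatives the nerve and cord difference of Cldn1 stayed between 4.34 and 6.72.

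Claudin-19 is the claudin of myelinating Schwann cells, where it seals the paranodal loops of the myelin sheath. Cldn19 signal was 3300 and 5878 in the left and right wild-type nerve, and 1399 and 13676 in the nude nerve. In DRG it was 6215 and 4680 in wild-type and 2099 and 1571 in nude rats. In the wild-type cord it was 1066 at the lumbar and 245 at the upper level, and in the nude cord 1091 and 238. Nerve exceeded cord by 4.05 on the log2 scale (95% confidence interval from 3.66 to 4.43, limma adjusted p = 7.9e-08), a 16.5-fold difference. The smaller excess of nerve over DRG, 0.51, passed the test (limma adjusted p = 0.030), but the nerve and DRG levels overlapped. It failed in 14 of 25 alternatives, with a log2 difference of 0.05 after quantile normalization (limma adjusted p = 0.85).

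**Figure D2:**
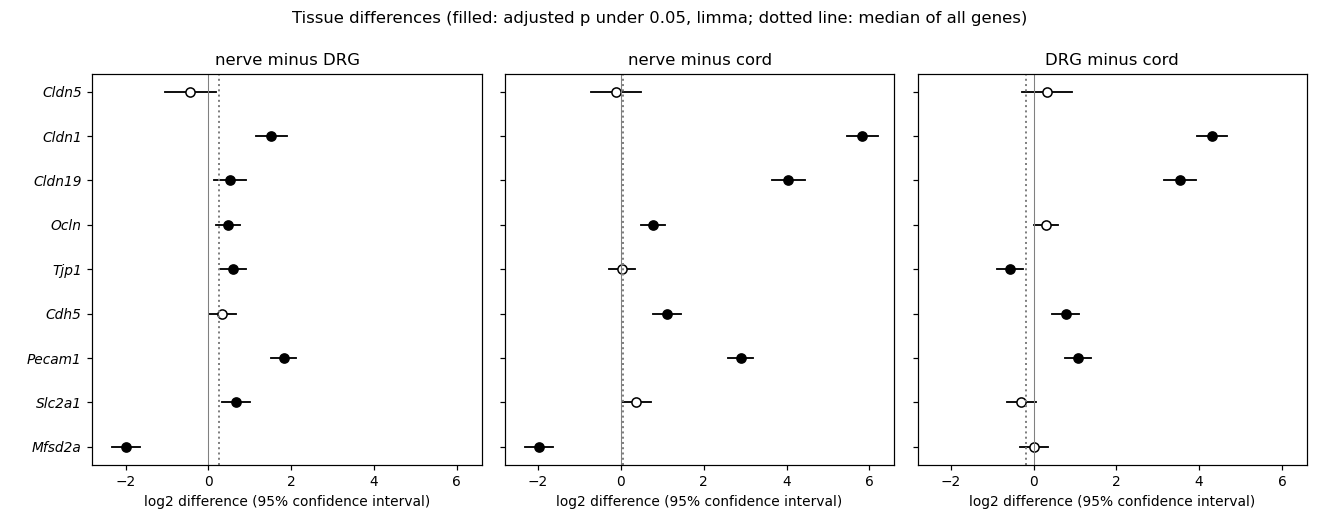
Log2 difference between tissues for the 9 fitted genes, with 95% confidence intervals from limma over 6 pool profiles, and the median of all genes as a dotted line. Filled points passed an adjusted p of 0.05. Cldn1, Cldn19 and Pecam1 lie far to the right against cord, Mfsd2a lies near -2 for nerve against both other tissues, and the Cldn5 intervals hold 0.

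Pecam1 (CD31) encodes an adhesion protein of endothelial cells that platelets and many leukocytes also carry. Its signal was 674 and 315 in the left and right wild-type nerve, 239 and 458 in the nude nerve, and 69.6 to 208 in DRG. In cord it ran from 86.9 to 131. The centred level was 3.66 ± 0.50 in nerve, 1.84 ± 0.02 in DRG and 0.77 ± 0.07 in cord (SD, n = 4 arrays), and no tissue overlapped another. Pecam1 was 7.42-fold higher in nerve than in cord (log2 2.89, limma adjusted p = 1.4e-07) and 3.53-fold higher than in DRG (log2 1.82, limma adjusted p = 7.8e-06). In DRG it exceeded cord by 1.07 (limma adjusted p = 1.3e-04). All 3 differences passed in all 25 alternatives. Leukocyte and macrophage genes also lay higher in nerve. Of all genes 36.7% were called higher in nerve than in cord (median 0.06) and 39.7% than in DRG (median 0.26). All 10 macrophage genes were called higher in nerve than in cord (median 2.60) and than in DRG (median 1.87), though Msr1 entered the fit only through nerve. All 5 leukocyte genes were called higher than in cord (median 1.61), and 4 of 5 than in DRG (median 1.40). The summed macrophage level was 1183 to 1446 array medians in nerve, 323 to 390 in DRG and 222 to 260 in cord, and their part in the Pecam1 differences was not tested.

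VE-cadherin, encoded by Cdh5, holds endothelial cells together at adherens junctions. Its signal spanned only 92.7 to 186 over the 12 arrays, a 2.01-fold range, whereas the array medians spanned 4.87-fold. On the centred scale Cdh5 was 1.11 higher in nerve than in cord (limma adjusted p = 1.3e-04) and 0.78 higher in DRG than in cord (limma adjusted p = 0.0016). Nerve and DRG differed by 0.34 and this did not pass (limma adjusted p = 0.078, 95% confidence interval from 0.005 to 0.67). The spread of its raw log2 signal, with an SD of 0.34, was smaller than that of its centred level, with an SD of 0.56, as for 17.3% of the 7950 genes well above background on all arrays. Of the barrier genes 4 had a smaller raw than centred SD. The other ones were Cldn1 (2.26 and 2.63), Cldn19 (1.79 and 2.06) and Pecam1 (1.06 and 1.27). The part of array brightness in the centred differences of these genes was not tested. The DRG and cord difference of Cdh5 fell to 0.27 with normexp and no longer passed (limma adjusted p = 0.13).

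The endothelial marker genes stood beside these adhesion genes as follows. Of the 20, 10 entered the tissue fit. All 10 were called higher in nerve than in cord (median log2 difference 1.64, against 0.06 over all genes, of which 36.7% were called higher). Of these, 8 were higher than in DRG (median 0.97, against 0.26, with 39.7% called higher). The filter favoured nerve for some of them. Icam2 entered only through nerve, with signals of 29.3 to 117 there and 6.07 to 16.5 in cord. Cd34 had 52.1 to 195 in nerve and 7.28 to 15.3 in cord. Kdr, the main receptor of vascular endothelial growth factor, was 1.64 higher in nerve than in cord. Emcn, an endothelial mucin, was 3.03 higher. Clec14a, an endothelial lectin, was 2.10 higher. Plvap, which encodes the diaphragm protein of fenestrated endothelium, was only 0.35 higher in nerve than in cord and -0.88 in DRG relative to cord. In bulk RNA, more endothelial cells and more RNA per cell cannot be told apart.

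Mfsd2a ran the other way. Its signal was 29.8 and 37.8 in the left and right wild-type nerve, and 10.495 and 71.8 in the nude nerve. In DRG it was 201 and 147 in wild-type and 102 and 75.6 in nude rats, and in cord 190 to 316. Nerve levels did not overlap those of the other tissues. Nerve was 3.98-fold lower than DRG (log2 -1.99, limma adjusted p = 8.8e-06) and 3.96-fold lower than cord (log2 -1.98, limma adjusted p = 3.2e-06), whereas DRG and cord differed by 0.01 (95% confidence interval from -0.33 to 0.35). The injected nude nerve value, not well above background, entered these means as measured. Both calls passed in all 25 alternatives, the fit without that array among them.

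Claudin-5 is the most abundant claudin of brain endothelium. Cldn5 signal was 100.0 and 109 in the left and right wild-type nerve and 21.9 and 116 in the nude nerve. It was 209 and 142 in the wild-type DRG, 68.0 and 49.4 in the nude DRG, and 115 to 172 in cord. No tissue difference of Cldn5 passed: nerve minus cord was -0.12 (95% confidence interval from -0.73 to 0.50, limma adjusted p = 0.72) and nerve minus DRG was -0.44 (from -1.05 to 0.17, limma adjusted p = 0.20). The rat types differed in direction for nerve against cord, at 0.52 in wild-type and -0.75 in nude rats. With slide as a further term nerve minus DRG became -0.82 and passed (limma adjusted p = 0.034). The Cldn5 intervals were the widest of the 9 genes.

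Ocln (occludin), Tjp1 (the scaffold zonula occludens-1) and Slc2a1 (the glucose transporter GLUT1 of barrier endothelium and perineurium) differed less between tissues. Their signals ran from 130 to 416, from 250 to 2022 and from 462 to 2618 over the arrays. Ocln was 0.78 higher in nerve than in cord (limma adjusted p = 5.6e-04), which fell to 0.24 with normexp and no longer passed (limma adjusted p = 0.27). In nerve minus DRG, Ocln was 0.47 (limma adjusted p = 0.013), Tjp1 0.59 (limma adjusted p = 0.0069) and Slc2a1 0.67 (limma adjusted p = 0.0054). The median shift of all genes was 0.26, and the 3 calls were lost under 10, 10 and 6 of 25 alternatives. With quantile normalization none of the 3 passed, with Ocln at 0.24, Tjp1 at 0.28 and Slc2a1 at 0.32 (limma adjusted p = 0.16, 0.13 and 0.12).

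Tjp1 was lower in DRG than in cord by -0.56 (limma adjusted p = 0.0070), and 7 alternatives removed the call. With the mean of its 2 probes the difference was -0.04. Slc2a1 missed the threshold against cord, with nerve at 0.38 (limma adjusted p = 0.051) and DRG at -0.29 (limma adjusted p = 0.12).

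Slides bear on these tissue values. A first slide held 8 arrays, those of nude rats and of wild-type nerve, and the second slide held the 4 arrays of wild-type DRG and cord. Within the nude pool, and so within a slide, nerve minus cord was 5.94 for Cldn1, 4.10 for Cldn19, 2.79 for Pecam1, 1.05 for Cdh5 and -1.98 for Mfsd2a. In the wild-type pool, across slides, these were 5.73, 3.99, 3.00, 1.18 and -1.99. With slide as a term, the Ocln excess of nerve over DRG fell to 0.34 (limma adjusted p = 0.11), and its excess of DRG over cord passed at 0.31 (limma adjusted p = 0.046).

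The next question was whether the genes differed between the lumbar cord, which receives the sciatic input, and the cord above it. Cldn19 was 5.98-fold higher in lumbar than in upper cord in wild-type rats (log2 2.58) and 4.42-fold higher in nude rats (log2 2.14). Its second probe gave 1.96 and 1.85. Cldn1 was 2.55-fold higher in wild-type rats (log2 1.35) and 1.94-fold higher in nude rats (log2 0.95). Of the 9 genes, 2 were thus at least 2-fold higher in wild-type cord, beside 0.913% of all genes, and 1 of 9 in nude cord, beside 0.776%. None was at least 2-fold lower, beside 0.831% and 0.589% of all genes.

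Lumbar and upper cord were then compared over the pools of both rat types, with limma on the 12 arrays and each pair from the same pool and tissue as a block. Cldn19 was 2.36 higher on the log2 scale in lumbar cord (95% confidence interval from 1.95 to 2.78, limma adjusted p = 2.8e-06). Cldn1 was 1.15 higher (from 0.65 to 1.65, limma adjusted p = 0.043). These 2 of 9 genes were called higher, beside 0.256% of all genes, and none was called lower, beside 0.177%. Slc2a1 and Tjp1 had an unadjusted p under 0.05 but did not pass after adjustment (limma adjusted p = 0.44 and 0.55). The Cldn19 call held in 16 of 17 alternatives and was lost with normexp (1.98, limma adjusted p = 0.059). The Cldn1 call was lost in 10 of 17, the 75th percentile (limma adjusted p = 0.081) and the fit without the wild-type cord pair (0.95, limma adjusted p = 0.82) among them, and also without either DRG pair (limma adjusted p = 0.14 and 0.15). Of all calls 59.1% were higher in lumbar cord, against 81.2% with the 75th percentile and 34.5% with normexp.

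The Cldn19 ratio lay at the 99.9 percentile of all genes in both rat types. Over the 9 ways of processing it ran from 2.06 to 2.64 in wild-type and from 1.89 to 2.22 in nude rats. Cldn1 ran from 0.73 to 1.41 and from 0.49 to 1.04, so that the wild-type ratio fell under 2-fold with normexp, and the nude ratio passed it under 3 other settings. The lowest values came with normexp, which adds an offset of 50 to signals that were 46.9 to 110 for Cldn1.

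Other genes of myelinating Schwann cells moved with Cldn19. Of 8 such genes other than Cldn19, 5 were at least 2-fold higher in wild-type lumbar cord, beside 0.913% of all genes. The median log2 ratio of the 8 was 1.55, against -0.07 over all genes. In nude rats 3 of 8 were at least 2-fold higher, beside 0.776% of all genes, and the median of the 8 was 0.56. Prx, periaxin of Schwann cells, had ratios of 3.12 and 2.60, and Pmp22, a peripheral myelin protein, 2.34 and 1.82. The lumbar excess was absent for Mag, Pllp and Mal, which oligodendrocytes also use, at -0.42, -0.74 and -0.41 in wild-type rats. In nude rats Mag was -1.07, the 1 gene of the list that was at least 2-fold lower, beside 0.589% of all genes. The oligodendrocyte list, with 7 genes tested, had medians of -0.61 and -0.54.

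The summed level of the Schwann list, Cldn19 included, was 623 array medians in lumbar and 396 in upper wild-type cord, and 519 and 474 in the nude cord. Pmp22 and Mag weighed most in these sums, and they ran opposite ways, with signals of 17869 and 9924 in lumbar and 4843 and 18322 in upper wild-type cord. Of its 9 genes on the array all were well above background in lumbar cord, and Drp2 was not in upper cord. The part of Schwann cell RNA in the Cldn19 and Cldn1 ratios was not tested. For Cldn1, the 4 perineurial genes on the array that are not barrier genes were all higher in lumbar cord. Of all genes 40.3% were higher in wild-type and 37.7% in nude rats. Slc2a1, a barrier gene on the same list, was lower, with ratios of -0.56 and -0.60. Of the 4, Lypd2 was only 0.02 in wild-type rats, and Cdh1 (1.27 and 0.22) is also on the Schwann list. The medians of the 4 were 0.75 and 0.18. Itgb4, the integrin beta 4 of the perineurium and Schwann cells, had ratios of 0.70 and 0.09.

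**Figure D3:**
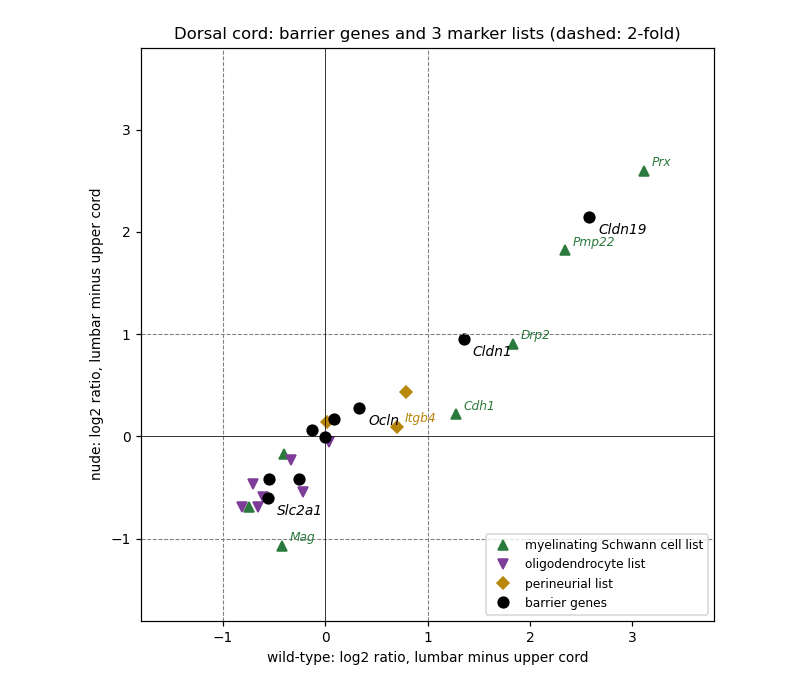
Log2 ratio of lumbar against upper dorsal cord in wild-type rats (x axis) and nude rats (y axis), 1 point per gene, for the barrier genes and for genes of 3 marker lists that are reported here (Drp2 is a lower bound). Cldn19 and Cldn1 lie in the upper right beside Prx and Pmp22, and the other barrier genes lie within 2-fold of 0 among the oligodendrocyte genes.

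The promoters of the 2 claudin genes with the lumbar excess, and of Slc2a1, are shown because Slc2a1 lies close to Cldn19 and did not share its pattern. In the RefSeq annotation of build GRCr8 the Cldn19 and Slc2a1 starts are 146 kb apart on chromosome 5. Each sequence runs from 250 bases before to 50 bases after the annotated start. Capitals mark a GC box (GGGCGG or its reverse complement CCGCCC) or, once in Slc2a1, a TATA box (TATAAA).
Cldn1 promoter, chr11:87926126-87926425, plus strand: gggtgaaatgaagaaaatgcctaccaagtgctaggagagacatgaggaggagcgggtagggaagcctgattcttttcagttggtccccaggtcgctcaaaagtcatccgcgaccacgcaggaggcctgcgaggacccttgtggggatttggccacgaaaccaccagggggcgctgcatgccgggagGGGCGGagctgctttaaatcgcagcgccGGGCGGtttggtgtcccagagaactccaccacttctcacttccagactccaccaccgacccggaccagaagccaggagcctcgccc
Cldn19 promoter, chr5:138148325-138148624, plus strand: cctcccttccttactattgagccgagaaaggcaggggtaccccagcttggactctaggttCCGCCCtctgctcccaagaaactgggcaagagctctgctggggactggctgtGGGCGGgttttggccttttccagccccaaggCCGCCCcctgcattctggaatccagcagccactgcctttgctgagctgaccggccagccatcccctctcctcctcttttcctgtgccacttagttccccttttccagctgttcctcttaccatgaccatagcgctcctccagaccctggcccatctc
Slc2a1 promoter, chr5:138002272-138002571, plus strand: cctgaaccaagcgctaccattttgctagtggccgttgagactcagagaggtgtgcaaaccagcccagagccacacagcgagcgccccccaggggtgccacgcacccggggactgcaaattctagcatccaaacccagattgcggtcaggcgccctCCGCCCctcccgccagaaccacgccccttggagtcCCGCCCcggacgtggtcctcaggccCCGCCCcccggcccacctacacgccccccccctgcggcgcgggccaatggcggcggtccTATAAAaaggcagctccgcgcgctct
In all, 5 motifs were searched on both strands without allowing mismatches. A GC box stood in 5 of the 7 promoters available for the 10 genes, and in 33.1% of 33469 rat promoters. The TATA box stood in 1, against 14.2%. The letters of an ETS core (CCGGAAG), a SOX core (ACAATGG) and an E-box (CACGTG) were in none of the 7, against 8.74%, 3.90% and 6.42% of all promoters. These matches describe letters only, and Cdh5, Pecam1 and Mfsd2a are named here without a promoter.

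The transporter and scaffold genes had cord ratios below 0. Slc2a1 signal was 1287 in lumbar and 2618 in upper wild-type cord, and 1353 and 1976 in nude cord. The ratios were -0.56 and -0.60, at the 6.15 and 3.54 percentiles of all genes, and neither reached 2-fold. Over both pools Slc2a1 was -0.58 and did not pass (limma adjusted p = 0.44). Tjp1 had ratios of -0.55 and -0.42, but its dim second probe gave -0.39 and 0.01. Mfsd2a had ratios of -0.26 and -0.42. Cldn5 did not differ between the levels of cord by more than its spots did, at 0.00 and -0.01, and Cdh5, Pecam1 and Ocln lay between -0.13 and 0.33.

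At the injected nerve the question was whether barrier genes differed from the PBS nerve of the same rats. In wild-type rats none of the 9 genes reached 2-fold in either direction, beside 4.68% of all genes higher and 4.08% lower. Their median log2 ratio was -0.06 and that of all genes -0.05. The closest were Cldn19 and Pecam1: Cldn19 was 1.94-fold lower (log2 -0.96) and Pecam1 1.96-fold higher (log2 0.97) in the injected nerve. Pecam1 passed 2-fold under 5 of the 9 ways of processing, with a range from 0.94 to 1.06. Tjp1 was -0.56, Mfsd2a -0.46, Cldn5 -0.26, Cldn1 -0.06, Cdh5 0.09, Ocln 0.12 and Slc2a1 0.34. Duplicate spots of 1 array set only the technical error of these ratios, with an SD of 0.03 for Pecam1, 0.05 for Cldn19 and 0.42 for Mfsd2a.

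Over the pools of both rat types, tested as for cord, 1 of 8 genes was called higher in the injected nerve and 2 were called lower, beside 6.35% and 20.3% of all genes. Mfsd2a was left out there, since it was not well above background on all 4 nerve arrays. Cldn19 was -1.29 (95% confidence interval from -1.70 to -0.87, limma adjusted p = 2.5e-04) and Tjp1 -0.86 (limma adjusted p = 0.0047), and Pecam1 was 0.85 (from 0.43 to 1.28, limma adjusted p = 0.0059), against a median of -0.19 over all genes. The Cldn19 call held in all 17 alternatives. Pecam1 lost it with normexp (0.31, limma adjusted p = 0.42) and with the nerve arrays alone (limma adjusted p = 0.16). Tjp1 lost it in 4 alternatives, with the mean of its 2 probes (-0.45, limma adjusted p = 0.094) and without the nude nerve pair (-0.56, limma adjusted p = 0.067) among them. Cdh5 (0.61) and Cldn1 (-0.62) did not pass (limma adjusted p = 0.072 and 0.065), but both passed without the wild-type nerve pair, and Cldn1 also with no filter on dim probes. Of all calls 23.9% were higher, against 41.3% with the 75th percentile. In DRG none of 9 genes was called, beside 0.0113% of all genes called higher and 0 called lower, the lowest adjusted p was 1.00 (limma), and none had an unadjusted p under 0.05.

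Pecam1 and Cldn19 each stood beside cell type genes that moved the same way in the wild-type nerve. All 5 leukocyte genes (median 0.80) and all 10 macrophage genes (median 0.55) were higher on the injected side with Pecam1, against 44.7% of all genes. Cd68, a lysosomal protein of macrophages, was 1.27, and Cd53, a leukocyte tetraspanin, was 1.06. The summed leukocyte level was 395 array medians in the injected and 245 in the PBS nerve, and the summed macrophage level 1446 and 1217, with all these genes well above background on both arrays. Their part in the Pecam1 ratio was not tested.

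The endothelial list was higher for 9 of its 12 tested genes, none of them 2-fold, with a median of 0.29, whereas 44.7% of all genes were higher, with a median of -0.05. Flt1 (24.8 against 9.20) and Nos3 (23.5 against 6.08), both among the 9, were well above background on the injected side alone. Such a gene was kept only where its bound was not below 0, so these 2 could count only as higher. Plvap was 0.84, Esam, a junctional adhesion protein, 0.52, Clec14a 0.49 and Kdr -0.46. Its summed level was 70.8 and 66.1 array medians on the injected and PBS side. Of 12 mural cell genes 10 were higher (median 0.30), and the pericyte genes Pdgfrb and Rgs5 were 0.99 and 0.91.

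With Cldn19, all 8 other Schwann cell genes were lower in the injected wild-type nerve, 5 of them at least 2-fold, beside 4.08% of all genes. The median of the 8 was -1.03, against -0.05 over all genes. Drp2, a dystroglycan partner in Schwann cells, was -1.45, and Prx was -1.36. The summed level of the list, Cldn19 included, was 1938 array medians in the injected and 3302 in the PBS nerve. The part of Schwann cell RNA in the Cldn19 ratio was not tested. Further lists also shifted between these 2 arrays. Red blood cell genes (5 of 5 higher, median 1.94) and muscle genes (9 of 9 higher, median 1.06) were higher, and adipocyte genes (5 of 5 lower, median -1.97) were lower on the injected side. Slc4a1 and Myl1 (injected side) and Cidec and Pck1 (PBS side) were well above background on 1 of the 2 arrays, so their direction was set by the filter. The adipocyte median is the bound of Pck1. The part of these lists in the barrier gene ratios was not tested.

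**Figure D4:**
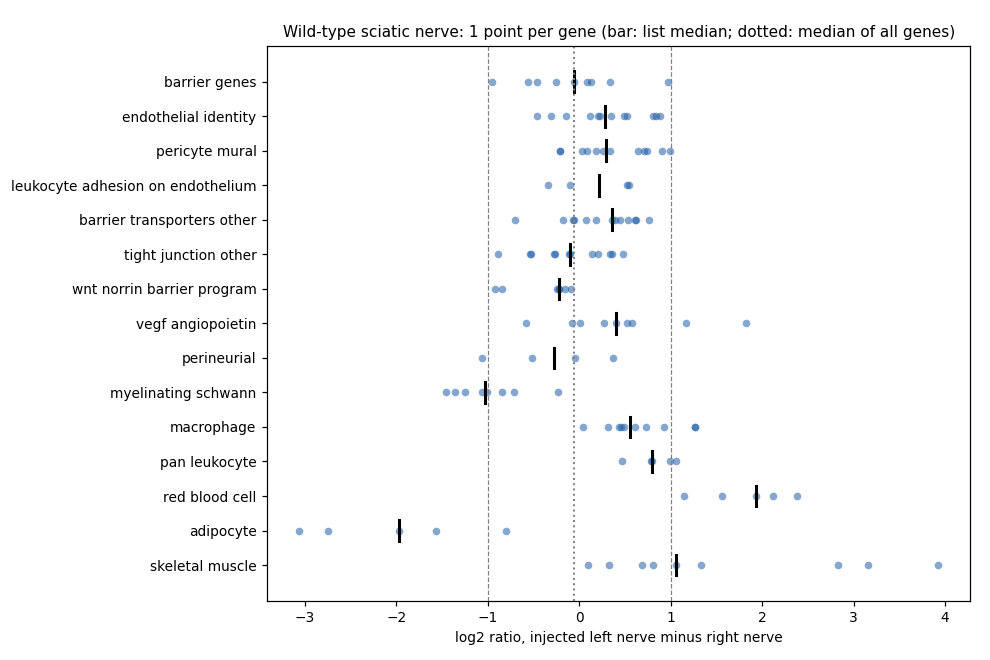
Log2 ratio of the injected left against the PBS right nerve in wild-type rats, 1 point per gene, for the barrier genes and 14 other lists without them (ratios of Flt1 and Nos3 are lower bounds), with the list median as a bar. The barrier genes spread on both sides of the median of all genes, Schwann cell and adipocyte genes lie left, and leukocyte, red blood cell and muscle genes lie right.

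Over all genes, nude nerve ratios had a median of -0.38 (log2), with 7.52% past 2-fold upwards and 13.5% past it downwards. Of calls, 35.7% were higher with median centring, against 68.0% with the 75th percentile. Of the 9 genes, 4 were at least 2-fold lower and 1 was at least 2-fold higher. Cldn19 was -1.62, or -1.23 relative to the median of all genes, and it stayed at least 2-fold lower under all 9 ways of processing, from -2.67 to -1.31. Cldn1 was -1.17, with a range from -2.23 to -0.80. Tjp1 was -1.17, with a range from -2.05 to -0.49, and its second probe gave 0.19. Mfsd2a was at least 2.14-fold lower (log2 at most -1.10) with median centring, where the injected side was not well above background, and that bound shrank to -0.45 under other processing.

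Cdh5 was the gene higher on the injected side of the nude nerve, at 1.12. Its signal there was 114 against 166 on the PBS side, so that it was lower before centring and higher after it, with array medians of 15.4 and 49.0. Over the 9 ways of processing Cdh5 ran from 0.21 to 1.43. Pecam1 was 0.73, with a range from -0.31 to 1.05, and Ocln 0.31, from -0.55 to 0.62, so that both turned direction. Cldn5 was -0.72 and Slc2a1 -0.72, with ranges from -0.72 to -0.41 and from -1.69 to -0.38.

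Cell type lists also shifted in the nude nerve, where 28.1% of all genes were higher, but leukocyte genes did not share the direction of Pecam1. Of the 8 other Schwann cell genes 6 were at least 2-fold lower, beside 13.5% of all genes, and the median of the 8 was -1.61. The summed Schwann level, Cldn19 included, was 1780 array medians in the injected and 3633 in the PBS nerve. Beside Cdh5 and Pecam1, 7 of 11 endothelial genes were higher (median 0.27), 3 of them at least 2-fold, beside 7.52% of all genes. Of 12 mural cell genes 9 were higher (median 0.34). Macrophage genes were higher for 7 of 10 (median 0.12), and leukocyte genes for 0 of 5 (median -0.16). These list values rest on median centring alone. Over the 9 ways of processing the median of all genes ran from -0.86 with normexp to -0.09. The part of these lists in the barrier gene ratios was not tested.

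**Figure D5:**
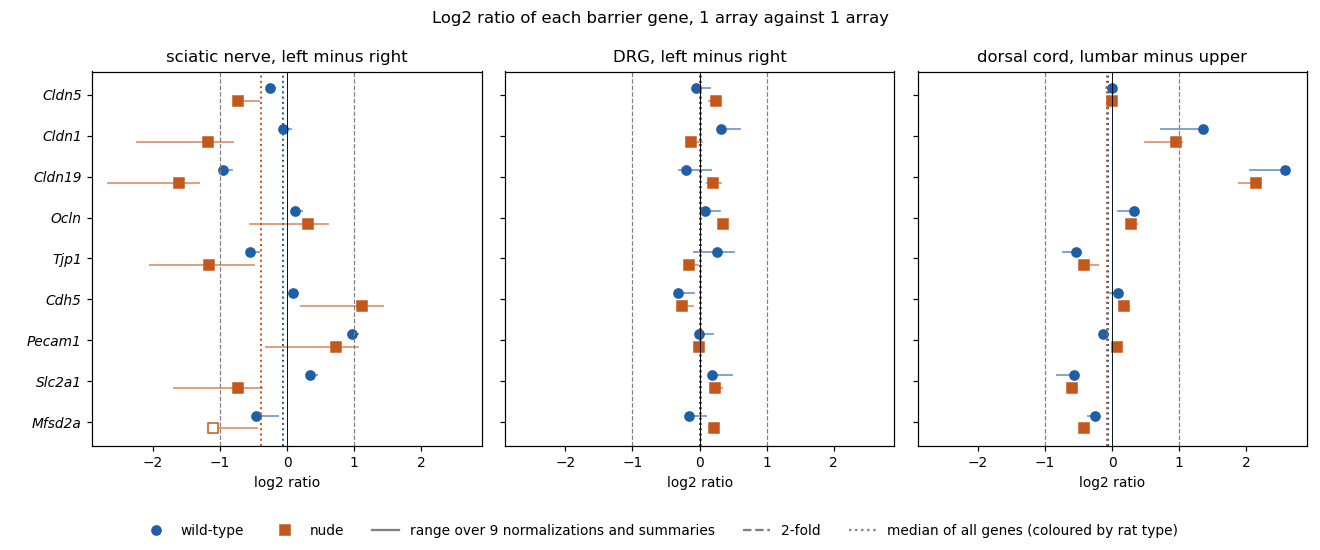
Log2 ratio of each gene in nerve, DRG (left against right) and dorsal cord (lumbar against upper), 1 array against 1, by rat type, with lines for the range over 9 ways of processing, dashed lines at 2-fold and dotted lines at the median of all genes. Cldn19 lies left in both nerves and right in both cords, DRG points cluster at 0, and the nude nerve has the longest lines.

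In DRG no gene reached 2-fold in either rat type, beside 0.489% of all genes higher and 0.517% lower in wild-type and 0.682% and 0.388% in nude rats. The ratios ran from -0.32 for Cdh5 to 0.31 for Cldn1 in wild-type rats and from -0.27 for Cdh5 to 0.35 for Ocln in nude rats. Cdh5 alone was lower in the left DRG by over 0.25 in both rat types, which shrank to -0.08 and -0.10 under other processing.

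Set side by side, the wild-type and nude ratios of Cldn19 were -0.96 and -1.62 in nerve, -0.21 and 0.20 in DRG and 2.58 and 2.14 in cord. Those of Slc2a1 were 0.34 and -0.72 in nerve, 0.19 and 0.23 in DRG and -0.56 and -0.60 in cord. The differences between rat types were not tested.

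The wider pathway was read in 5 lists of genes. Among other tight junction genes, 12 of 19 could be read in wild-type nerve, 5 were higher and none reached 2-fold, with a median of -0.11. Cldn14, a claudin, was -0.89. Of all genes 44.7% were higher there. Of 13 other barrier transporters and regulators, 9 were higher, with a median of 0.36. Atp10a and Lef1, both among the 9, were well above background on the injected side alone and could count only as higher. Slc38a5, an amino acid transporter, was 0.76 and Tfrc, the transferrin receptor, -0.70. In tissues, Slc38a5 shared the direction of Mfsd2a, at -2.47 in nerve minus DRG and -2.15 in nerve minus cord (limma adjusted p = 2.0e-04 and 2.4e-04). The list as a whole was split. Of 15 genes fitted, 3 were called higher and 6 lower in nerve than in DRG, beside 39.7% and 16.5% of all genes. Against cord 5 were called higher and 5 lower in nerve, beside 36.7% and 33.8%. In the injected wild-type nerve, none of the 7 genes of the Wnt and norrin program that barrier endothelium uses was higher. Their median was -0.22, and the program's receptor partner Tspan12 was -0.92.

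Among vascular growth factor genes 7 of 9 were higher in wild-type nerve, with a median of 0.40, beside 44.7% of all genes. At least 2-fold higher were 2 of the 9, beside 4.68% of all genes. One of the 2 was Vegfd (31.4 against 12.8). Vegfd and Nrp2 (17.7 against 11.4), both among the 7, were well above background on the injected side alone and could count only as higher. Angptl4, a lipoprotein lipase inhibitor, led at 1.83, and Angpt2, a ligand that loosens vessels, was -0.58. Of 4 genes with which endothelium binds leukocytes, 2 were higher, Vcam1 at 0.54 and Icam1 at 0.52. Cd99 (-0.34) and Jam3 (-0.10) were lower. In nude nerve, with median centring, 0 of these 4 were higher (median -0.57), beside 28.1% of all genes (median -0.38).

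Likeness over the 12 arrays, by Pearson's r of centred levels among 7950 genes, is a description, since the arrays share tissues and scaling. The genes most like Cldn19 were Slc36a2 (0.995), Pmp22 (0.995), which encodes a protein of peripheral myelin, and Per1 (0.993). Those most like Cldn1 were Oaf (0.992), Lamc1 (0.991), the laminin gamma 1 chain, and Ccn4 (0.991). Those most like Pecam1 were Tnfaip8l2 (0.995), Ptpru (0.994) and Igsf7 l1 (0.994). Cdh5 was nearest to Ptgir (0.986), the prostacyclin receptor, Brdt (0.986) and Hcrt (0.981), and Cldn5 had no close match, with Ilvbl at 0.779, Prom1 at 0.720 and Ppfibp2 at 0.711. Tjp1 was nearest to Frs2 (0.970), Rala (0.966) and Car5b (0.964), Ocln to Ddx47 (0.950), Grik5 (0.937) and Cdk20 (0.931), and Slc2a1 to Herc4 (0.915), Mrpl34 (0.907) and Ppil3 (0.907). Among the 10 genes themselves, Cldn1 and Cldn19 were closest (0.95), and Cldn5 was not above 0.15 with any of the other 7 that were measured on all arrays.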

How the data were processed

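RNA of rat sciatic nerve, DRG and dorsal cord was hybridised to 12 one-colour Agilent arrays, 1 per condition, each a pool of 3 rats. The deposited scanner files hold each spot's processed intensity, background-subtracted by Agilent Feature Extraction (10.7.3.1 per the file headers), with well-above-background flags. The authors' deposited table holds normalized log2 values of the same arrays and served as an alternative. Control spots and outlier spots were left out, spots of a probe were averaged as log2 intensity, and each array was centred on its median probe. A probe was well above background when over 50% of its used spots were flagged so. A gene took its brightest probe, and 18006 of 30367 probes were named through RefSeq accessions. Ratios were floored at the lowest detected signal of each array, and at least 2-fold counted as called. A gene well above background on 1 of the 2 arrays was dropped when its bound lay lower on that array. Such genes could therefore count in 1 direction only. Tissues were compared with limma 3.58.1 (R 4.3.3) with 2 residual degrees of freedom, as tested on simulated data. Sides were compared over both rat types with limma on the 12 arrays, with pool and tissue as a block and 3 residual degrees of freedom pooled over tissues. The p-values of tissues measure how far tissue differences disagree between 2 pools that also differ in strain, day and slide. Those of sides and cord levels measure how far the ratios of the 2 pools disagree, pooled over nerve, DRG and cord. Named genes were the 10 barrier genes, up to 2 per list (4 endothelial) with the largest ratio in wild-type nerve, the 3 most like each barrier gene, and genes that define a list. Some genes under this rule are not reported here. The genes and lists were chosen with earlier results of these data known. The labels give day 7 for nude and day 12 for wild-type rats, whereas the methods name 1 time for both and heterozygous rnu+/- controls. Alternatives were other scalings, normexp (on median spot signals, offset 50), the authors' values, other probe summaries and filters, slide and rat type terms, and each array left out.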

Additional observations from a re-analysis of the deposited data

Results flagged for a closer look

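Slc2a1 in nerve and Cldn19 in DRG moved in opposite directions in the rat types, each by more than 2 SDs of its duplicate spots. For Slc2a1 the log2 ratio of injected to PBS nerve was 0.34 for wild-type rats against -0.72 for nude rats, a difference of 1.07, although relative to the median of all genes the nude ratio was -0.34. For Cldn19 the log2 ratio of left to right DRG was -0.21 for wild-type rats against 0.20 for nude rats, a difference of -0.40, and its range over ways of processing held 0 in wild-type rats (-0.31 to 0.17). Neither difference was tested, since each ratio came from 1 array a side.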

How the results depend on the processing

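The calls of Cldn1, Pecam1 and Mfsd2a in nerve against DRG and cord, and of Cldn19 in nerve and DRG against cord, passed under all 25 alternatives tried. Over the 9 genes and 3 contrasts, 605 values kept their side of the threshold, 49 lost it, 21 gained it and none reversed with a call. Of 539 ratios of 1 array against 1 under alternatives, 126 moved by more than the SD of their duplicate spots, and no ratio of at least 2-fold turned sign among them. The dim second probe of Tjp1, not among them, gave 0.19 in nude nerve against -1.17, and Cdh5 there was lower before centring. Counts of genes at least 2-fold higher and lower moved more. With normexp they were 202 and 107 in wild-type nerve, 25 and 7 in wild-type DRG, 20 higher in wild-type cord, 27 and 4070 in nude nerve, 22 and 1 in nude DRG and 33 and 13 in nude cord, and nerve and DRG differed in 3490 genes. With no filter and no floor they were 831 and 742, 299 and 304, 266 and 275, 4085 higher, 373 and 282, and 344 and 259, in the same order. At 3-fold they were 184 and 88, 15 and 6, 28 and 11, 168 and 213, 27 and 1, and 33 and 12. With probes well above background on both arrays, 35 were higher in wild-type DRG, 32 higher and 22 lower in nude DRG and 55 higher in nude cord. In wild-type DRG 85 were lower with quantile normalization and with the authors' values. In nude nerve 1128 were higher and 530 lower with the 75th percentile, 641 lower with quantile normalization, 642 lower with the authors' values, and 1155 higher and 505 lower when centred on probes detected on all arrays, a setting chosen after seeing the data, as was slide. The cause was not tested. Leaving out 1 array ended the nerve minus DRG call of Cldn19 (either right nerve, the left wild-type DRG or any cord array, down to 0.11), Ocln (injected nude nerve, 0.39), Slc2a1 (nude right nerve, 0.48) and Tjp1 (nude right nerve, 0.30, or wild-type right nerve, 0.45), and the DRG minus cord call of Tjp1 (injected nude nerve, -0.56, or nude upper cord, -0.46). It brought a call to Cdh5 in nerve minus DRG (nude right nerve, 0.62, or nude right DRG, 0.41), to Ocln in DRG minus cord (nude right DRG, 0.40, or nude lumbar cord, 0.38), to Slc2a1 in DRG minus cord (nude lumbar cord, -0.44), and to Slc2a1 in nerve minus cord (5 arrays, 0.38 to 0.56). Low signals bound what could be read, as for Abcb1a. Over both pools, a test chosen after seeing the data, 2283 genes were called in nerve, 1 in DRG and 44 in cord. With normexp these were 931, 7 and 55, with no filter 23 in DRG and 142 in cord, and with the 4 arrays of a tissue alone 655, 21 and 996. With no replicate block, that is without pairing arrays by pool, they were 2066, 0 (49 at an unadjusted p under 0.05, limma) and 30. Leaving out 1 pair gave 1177 to 4459, 0 to 8 and 26 to 277, and a pair left alone in its tissue was assumed to vary like those of other tissues. Of 442 values of the barrier genes 416 kept their side of the threshold, 17 lost it and 9 gained it.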

Other observations

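Mural cell genes followed the endothelial ones between tissues. Of 12 genes of pericytes and vascular smooth muscle, 11 were called higher in nerve than in cord, with a median log2 difference of 2.67, against 36.7% of all genes and a median of 0.06. In nerve against DRG 10 were called higher, with a median of 0.88, against 39.7% of all genes and a median of 0.26 (limma). Anpep, of the same list, entered the fit only through nerve. Rgs5, a pericyte regulator of G protein signalling, was 2.73 higher in nerve than in cord, and Pdgfrb, the receptor that recruits pericytes, was 2.28 higher.

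With median centring, red blood cell genes were higher on the injected side of the nude nerve too, for 4 of 4 tested genes (median 2.87). Of all genes 28.1% were higher there. In nude DRG 5 of 7 muscle genes were at least 2-fold higher on the left (median 1.70), beside 0.682% of all genes, while no barrier gene was. Of the 5, Ckm (39.9 against 10.1) and Myh1 (81.1 against 6.10) were well above background on the left array alone and could count only as higher. The median is the bound of Ckm.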
